A study of Homo sapiens with 2 samples.

Results

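The proteasome is the barrel-shaped protease that degrades ubiquitin-tagged proteins, and the transcripts described here encode its subunits, its assembly chaperones, its activators and its inhibitor. They were the rows of the deposited expression table whose gene symbol is PSMA, PSMB, PSMC, PSMD, PSME, PSMF or PSMG followed by digits alone. Of 13075 genes in the table, 46 met this rule, and all 46 passed a floor of 5 FPKM (fragments per kilobase of transcript, normalised to library depth) in at least 1 library. Of 48 names in the roles below, PSMA8 and PSMB11 were not among the rows analysed here.

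The cells were HEK293, a line derived from human embryonic kidney, at the labelled passage number of 15. They had been made to express, by transfection, a FLAG-tagged form of TOP3B with the R338W substitution, and the question of the series was which RNAs carry cleavage complexes of this topoisomerase. The R338W RIP library held RNA recovered with an anti-FLAG antibody, and the R338W input library held RNA of the same transfected cells with no antibody step. Each group was 1 library, so no difference below has a replicate check and no p-value or SD is given, and no pulldown from cells lacking the tag was used here.

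The TOP3B transcript itself stood at 30666 FPKM in the RIP against 15062 FPKM in the input, far above the level of any proteasome transcript. These RNA values do not show how much of the FLAG-tagged protein was present or recovered. Of 10 marker genes of kidney tubule, blood and liver cells, 1 was in the table, LRP2, at 5.49 FPKM in the RIP against 1.96 FPKM in the input. Estimated depth was 24900000 fragments for the RIP and 15300000 for the input. Both libraries came from the same transfected cells, so the ratios do not compare cell numbers or RNA per cell. Recovery by the tag and background binding cannot be told apart here.

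The complete proteasome has a core particle and a regulatory particle. The core is a stack of alpha rings and beta rings, and the proteolytic sites lie on beta subunits inside it. The regulatory particle caps the core and has a base and a lid. The base holds a ring of ATPases that unfold substrates and thread them into the core, and the lid removes ubiquitin chains. Dedicated chaperones build the core and the base separately before they join.

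Differences are given as log2((RIP + 1)/(input + 1)), where the added 1 FPKM is a pseudocount that shrinks the differences of low genes. All 9 base transcripts had more FPKM in the RIP than in the input, with a median log2 ratio of 0.30. Of 17 core transcripts, 14 had less FPKM in the RIP than in the input, with a median of -0.28, although 3 did so after rescaling to TPM. The 8 lid transcripts lay between these groups, with a median of 0.14, which was close to the median of 0.13 over all 11990 genes tested. The 4 core chaperones PSMG1 to PSMG4 were all lower in the RIP, with a median of -0.55. Ratios above 0 made up 58.7% of all genes tested and ratios below 0 made up 41.2%.

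Over all 46 transcripts the median log2 ratio was 0.02, with 23 above and 23 below 0. In deposited FPKM none reached a 2-fold difference in either direction, whereas 4.90% of all genes tested lay 2-fold or more above the input and 2.50% lay 2-fold or more below it. Rescaled to TPM, 5 members and 2428 of the 11990 genes tested were at least 2-fold higher. At a 1.5-fold limit 5 transcripts (10.9%) were higher, against 19.9% of all genes tested, and 4 (8.70%) were lower, against 10.2%. All genes tested include noncoding genes. Among the 10513 protein-coding genes tested, 19.2% were at least 1.5-fold higher and 7.01% lower in deposited FPKM. At the 2-fold limit 384 of these protein-coding genes were higher and 56 lower, so few members would be lower at their rate. The near-zero total joined groups on opposite sides of the median gene, with the base above it and the core below.

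**Figure D1:**
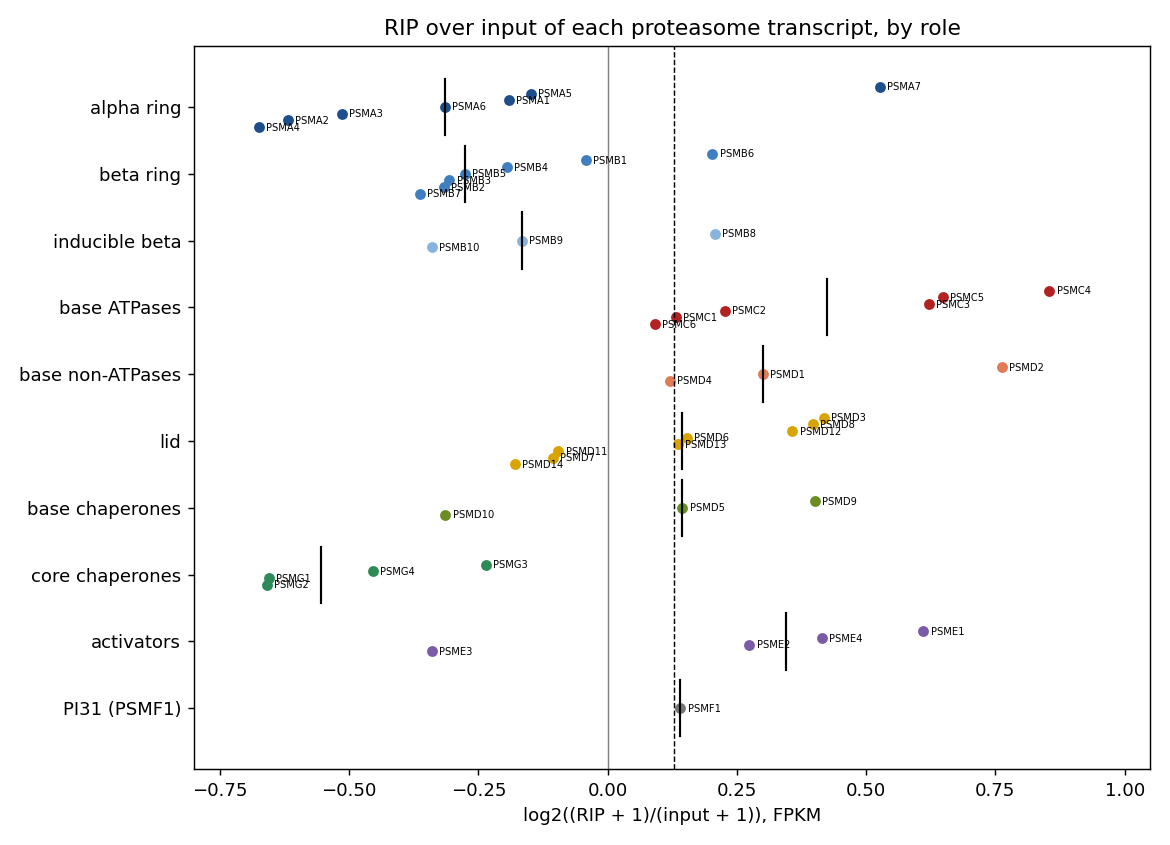
Each point is 1 transcript, with its log2 ratio of RIP over input on the x axis and its role in the proteasome on the y axis. Black bars mark the median of each role, the grey line marks 0 and the dashed line the median of all genes tested (0.13). All 9 base transcripts lie right of 0, and 14 of 17 core transcripts and all 4 core chaperones lie left of it in deposited FPKM (3 and 3 after rescaling to TPM).

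The scaling of the libraries moved these ratios together. The deposited values of the RIP summed to 1090243 FPKM, and those of the input to 1512049 FPKM. Centred on the median gene, the base had a median of 0.17, the lid 0.02 and the core -0.40. Rescaled to TPM, which gives both libraries the same sum and adds 0.47 to a log2 ratio of an abundant gene, the base had 0.76, the lid 0.61 and the core 0.19, so the core median turned positive, but the median of all genes tested was then 0.56. The base exceeded the core by 0.58 log2 in medians, or 1.49-fold, and this difference does not depend on the scaling beyond the pseudocount. Ratios stayed below 0 in 3 core transcripts and 3 core chaperones under TPM, and above 0 in 7 base transcripts after centring, so directions against the input below hold for the deposited FPKM. A scaling shifts nearly all genes alike, so positions against the median gene hardly depend on it. In deposited FPKM 14 of 17 core transcripts and all 4 core chaperones lay below the median gene and 7 of 9 base transcripts above it, against 50.0% of all genes tested by construction. With a pseudocount of 0.1, or with a floor of 20 FPKM, 6 of 9 base transcripts lay above it.

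**Figure D2:**
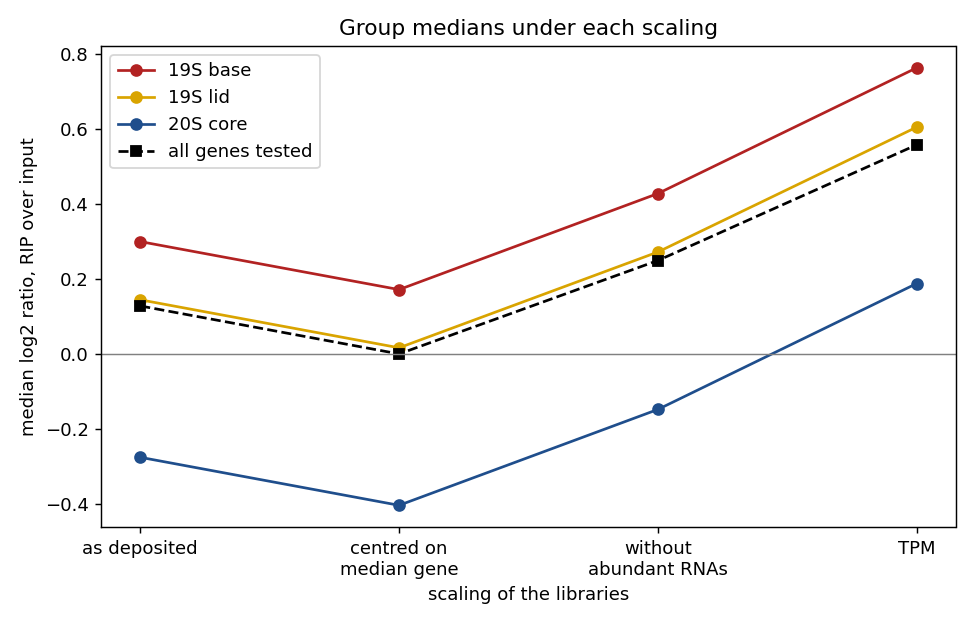
The y axis gives the median log2 ratio of RIP over input for the base (9 transcripts), the lid (8), the core (17) and all genes tested, and the x axis gives the scaling of the 2 libraries. The lines shift together, and the order of base, lid and core is the same at each scaling, whereas the sign of the core median is positive after rescaling to TPM.

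The base ATPases are 6 related proteins that form the unfolding ring. PSMC4 stood at 128 FPKM in the RIP against 70.3 FPKM in the input, giving a log2 ratio of 0.85, which was the highest of the 46 transcripts. PSMC5 stood at 95.9 FPKM in the RIP against 60.9 FPKM in the input, and PSMC3 at 139 FPKM in the RIP against 90.1 FPKM in the input. These gave log2 ratios of 0.65 and 0.62, and with PSMC4 they were the 3 ATPases at least 1.5-fold higher in the RIP.

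The other 3 ATPases were closer to the median gene. PSMC2 stood at 73.9 FPKM in the RIP against 63.0 FPKM in the input, giving a log2 ratio of 0.23. PSMC1 stood at 142 FPKM in the RIP against 129 FPKM in the input, giving a log2 ratio of 0.13. PSMC6 stood at 71.7 FPKM in the RIP against 67.3 FPKM in the input, and its log2 ratio of 0.09 was below the median gene. The ATPase ring is built from 1 copy of each protein, but its transcripts spanned 0.09 to 0.85 in log2 ratio.

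The ATPases share their ATP-binding loop, and its coding bases are shown as an example of a stretch where these related transcripts are alike. The DNA pattern GGNCCNCCNGGNNNNGGNAANACN, which allows any base at each N, was searched on the sense strand and in frame in 1 coding sequence per gene of GENCODE release 29 (GRCh38). All 6 ATPases held it and no other member did, against 47 of 10490 coding genes tested (0.448%). The pattern was built from the known amino acids of this loop, so the matches in the ATPases followed from that choice. They say nothing about the RIP. The matched 24 bases are in capitals, with 18 bases on each side in lower case, on the coding strand, and the coordinates are those of the gene.
PSMC1 (chr14:90256495-90275429, plus strand): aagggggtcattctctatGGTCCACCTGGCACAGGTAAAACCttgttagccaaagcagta
PSMC2 (chr7:103344254-103369395, plus strand): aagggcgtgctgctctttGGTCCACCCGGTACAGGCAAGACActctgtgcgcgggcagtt
PSMC3 (chr11:47418769-47426473, minus strand): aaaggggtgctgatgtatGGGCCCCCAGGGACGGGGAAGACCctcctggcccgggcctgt
PSMC4 (chr19:39971005-39981441, plus strand): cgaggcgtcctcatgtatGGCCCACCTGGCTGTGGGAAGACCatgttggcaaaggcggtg
PSMC5 (chr17:63827152-63832026, plus strand): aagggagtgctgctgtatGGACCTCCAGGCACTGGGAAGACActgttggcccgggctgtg
PSMC6 (chr14:52707172-52728587, plus strand): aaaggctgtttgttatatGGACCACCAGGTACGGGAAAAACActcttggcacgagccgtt
Over these 24 bases the 15 pairs of ATPases differed at 5 to 9 positions. The rest of the transcripts was not compared.

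The base also holds 2 large scaffold subunits and a ubiquitin receptor. PSMD2, a scaffold that docks ubiquitin receptors, stood at 190 FPKM in the RIP against 111 FPKM in the input, giving a log2 ratio of 0.76. It had the second highest ratio of the 46 transcripts. PSMD1, the other scaffold, stood at 94.7 FPKM in the RIP against 76.7 FPKM in the input, giving a log2 ratio of 0.30. PSMD4, a receptor for ubiquitin chains, stood at 189 FPKM in the RIP against 174 FPKM in the input, and its log2 ratio of 0.12 lay just under the median gene.

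The lid transcripts of the name rule went both ways, with 5 of 8 above 0 and 3 below. PSMD3 stood at 91.6 FPKM in the RIP against 68.3 FPKM in the input, and PSMD8 at 123 FPKM in the RIP against 93.3 FPKM in the input. These scaffold subunits had log2 ratios of 0.42 and 0.40, the highest of these 8, followed by PSMD12 at 0.36. PSMD14, the enzyme that cuts ubiquitin chains from substrates, stood at 57.1 FPKM in the RIP against 64.9 FPKM in the input. Its log2 ratio of -0.18 was the lowest of the 8 lid transcripts that meet the name rule, which does not take the small lid subunit SEM1 (-0.72, described with the further genes). PSMD7, the inactive partner of that enzyme, stood at 70.8 FPKM in the RIP against 76.2 FPKM in the input, giving a log2 ratio of -0.11. PSMD11, PSMD13 and PSMD6, which are further structural subunits, had log2 ratios of -0.10, 0.14 and 0.15. Of these 8 PSMD-named lid transcripts, none was 1.5-fold apart from the input in either direction.

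In the alpha ring, which forms the gate of the core, 6 of 7 transcripts were lower in the RIP. PSMA4 stood at 165 FPKM in the RIP against 264 FPKM in the input, giving a log2 ratio of -0.67, which was the lowest of the 46 transcripts. PSMA2 stood at 48.1 FPKM in the RIP against 74.4 FPKM in the input, and PSMA3 at 69.7 FPKM in the RIP against 99.95 FPKM in the input. These gave log2 ratios of -0.62 and -0.51, and PSMA2 overlaps another measured gene on the same strand, given with the overlaps at the end. PSMA6, PSMA1 and PSMA5 were nearer to the input, with log2 ratios of -0.31, -0.19 and -0.15.

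PSMA7 was the exception in the alpha ring. It stood at 206 FPKM in the RIP against 143 FPKM in the input, giving a log2 ratio of 0.53. It was the most abundant member in the RIP, while PSMA4 was the most abundant member in the input.

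In the beta ring 6 of 7 constitutive transcripts were lower in the RIP, over a narrower range than in the alpha ring. The catalytic subunits did not share 1 direction. PSMB5, the chymotrypsin-like subunit, stood at 57.1 FPKM in the RIP against 69.4 FPKM in the input, giving a log2 ratio of -0.28. PSMB7, the trypsin-like subunit, stood at 79.7 FPKM in the RIP against 103 FPKM in the input, giving a log2 ratio of -0.36. PSMB6, the caspase-like subunit, stood at 106 FPKM in the RIP against 92.4 FPKM in the input, giving a log2 ratio of 0.20, and was the 1 constitutive beta transcript above its input. The structural subunits PSMB2, PSMB3, PSMB4 and PSMB1 had log2 ratios of -0.32, -0.31, -0.19 and -0.04.

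The inducible catalytic subunits PSMB8, PSMB9 and PSMB10 replace PSMB5, PSMB6 and PSMB7 in the immunoproteasome of immune and interferon-treated cells. Their FPKM levels were below those of the subunits they replace in both libraries. PSMB9 stood at 29.7 FPKM in the RIP against 33.5 FPKM in the input, and PSMB10 at 9.92 FPKM in the RIP against 12.8 FPKM in the input. PSMB8 stood at 8.77 FPKM in the RIP against 7.46 FPKM in the input. Their log2 ratios were -0.17, -0.34 and 0.21. PSMB8 rested on the fewest estimated fragments, 209 in the RIP against 109 for the input, with a counting error of 0.17 on the log2 scale. For 42 of the 46 transcripts the counting error was under 0.1, and it covers counting alone, not the spread between pulldowns.

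**Figure D3:**
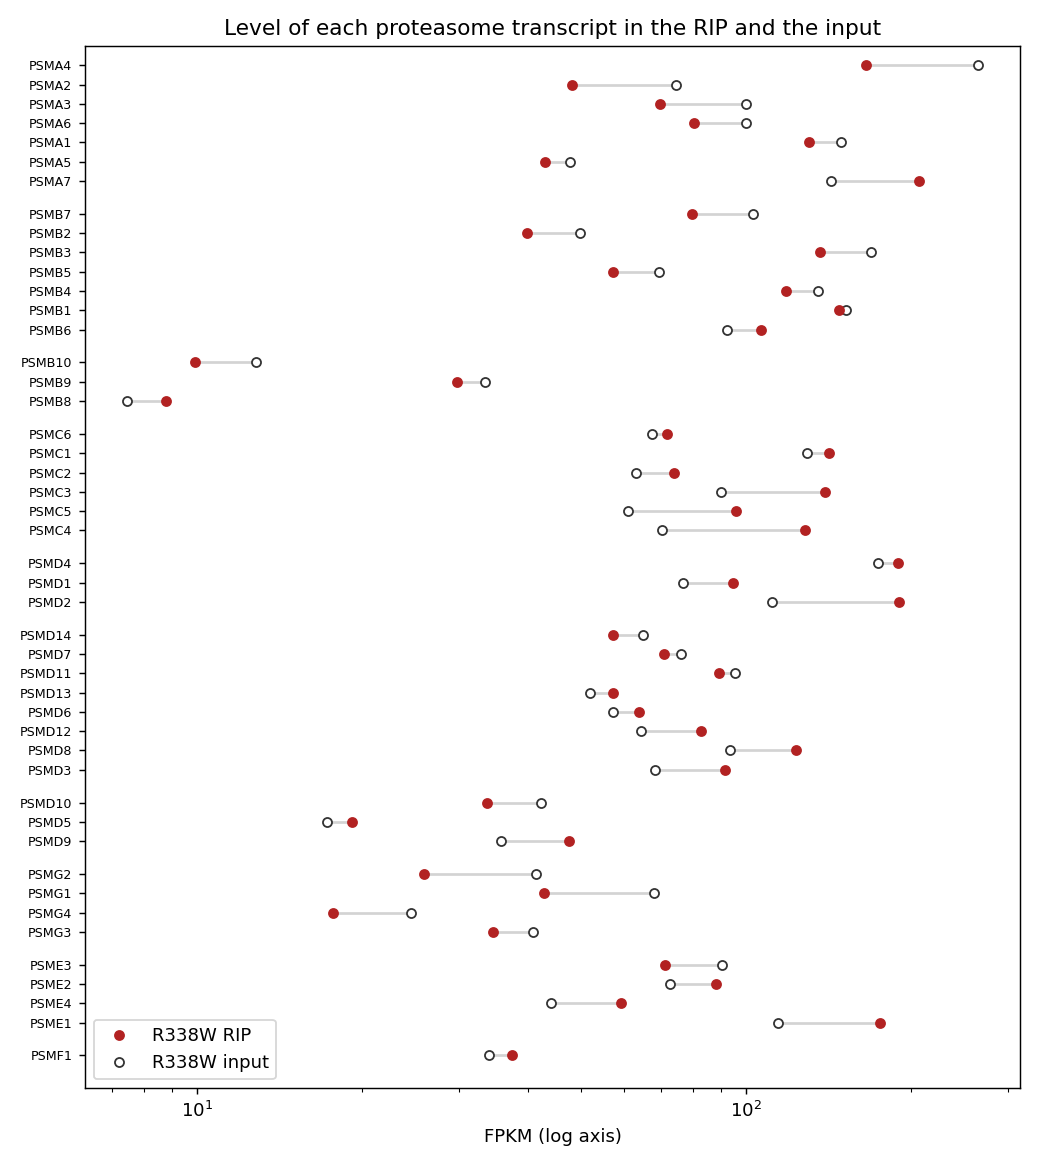
Each row is 1 transcript, with its FPKM in the R338W RIP (filled points) and in the R338W input (open points) on a log axis, and rows are grouped by role in the order alpha ring, beta ring, inducible beta, base ATPases, other base, lid, base chaperones, core chaperones, activators and inhibitor. Filled points lie left of open points in most core rows and right of them in all 9 base rows, in deposited FPKM (after rescaling to TPM 3 core rows keep the filled point on the left).

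The 4 chaperones that assemble the core had a median log2 ratio of -0.55, and the 3 that assemble the base had 0.14. The values of these sets overlapped, since the base chaperone PSMD10 (-0.31) lay below the core chaperone PSMG3 (-0.24). PSMG1 and PSMG2 form a pair that starts the alpha ring. PSMG1 stood at 42.8 FPKM in the RIP against 68.0 FPKM in the input, and PSMG2 at 25.9 FPKM in the RIP against 41.5 FPKM in the input. Both had a log2 ratio of -0.66. The second pair, PSMG3 and PSMG4, had log2 ratios of -0.24 and -0.45, with PSMG4 at 17.7 FPKM in the RIP against 24.6 FPKM in the input. All 4 core chaperones lay below the lowest base transcript, PSMC6 at 0.09. That transcript was itself below the median gene, and 41.2% of all genes tested had ratios below 0.

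Of the base chaperones, PSMD9 stood at 47.5 FPKM in the RIP against 35.8 FPKM in the input, giving a log2 ratio of 0.40. PSMD5 stood at 19.1 FPKM in the RIP against 17.2 FPKM in the input, giving a log2 ratio of 0.14. PSMD10, also called gankyrin, binds the ATPase PSMC4 during assembly. It stood at 33.8 FPKM in the RIP against 42.2 FPKM in the input, giving a log2 ratio of -0.31, on the other side of 0 from PSMC4.

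The activators open the core in place of the regulatory particle. PSME1 and PSME2 form 1 mixed ring that is induced by interferon. PSME1 stood at 175 FPKM in the RIP against 114 FPKM in the input, giving a log2 ratio of 0.61. PSME2 stood at 88.2 FPKM in the RIP against 72.7 FPKM in the input, giving a log2 ratio of 0.27. PSME3, which forms a ring of its own in the nucleus, stood at 71.0 FPKM in the RIP against 90.2 FPKM in the input, giving a log2 ratio of -0.34. It was the 1 activator below its input. PSME4, a single large protein, stood at 59.2 FPKM in the RIP against 44.2 FPKM in the input, giving a log2 ratio of 0.41. The inhibitor PSMF1 stood at 37.5 FPKM in the RIP against 33.9 FPKM in the input, giving a log2 ratio of 0.14.

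Coding length differed between the groups in the same direction as the ratio. Core transcripts had coding sequences of 606 to 834 bases, lid transcripts 933 to 1605 and base transcripts 1143 to 2862. Over the 46 transcripts the Spearman correlation of coding length with the log2 ratio was 0.51, and over 10490 coding genes tested it was also 0.51. These are correlations across genes of the same 2 libraries, and genes are not independent replicates. Within the 17 core transcripts it was -0.05, and in the other 29 it was 0.53.

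Coding genes of like length gave a second scale, and the core median was close to it in the shortest class. Coding genes tested with 78 to 744 coding bases had a median log2 ratio of -0.25, and the 8 core transcripts of that length had -0.24. With 747 to 1182 bases the median of coding genes was 0.01, that of 9 core transcripts was -0.28, that of 5 lid transcripts was 0.14 and the 1 base transcript, PSMD4, had 0.12. With 1185 to 1671 bases the median of coding genes was 0.15, that of 6 base transcripts was 0.42 and that of 3 lid transcripts was 0.36. With 2547 bases or more the median of coding genes was 0.51 and that of the 2 base transcripts, PSMD1 and PSMD2, was 0.53. The part of coding length in the difference between core and base was not tested beyond these values.

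**Figure D4:**
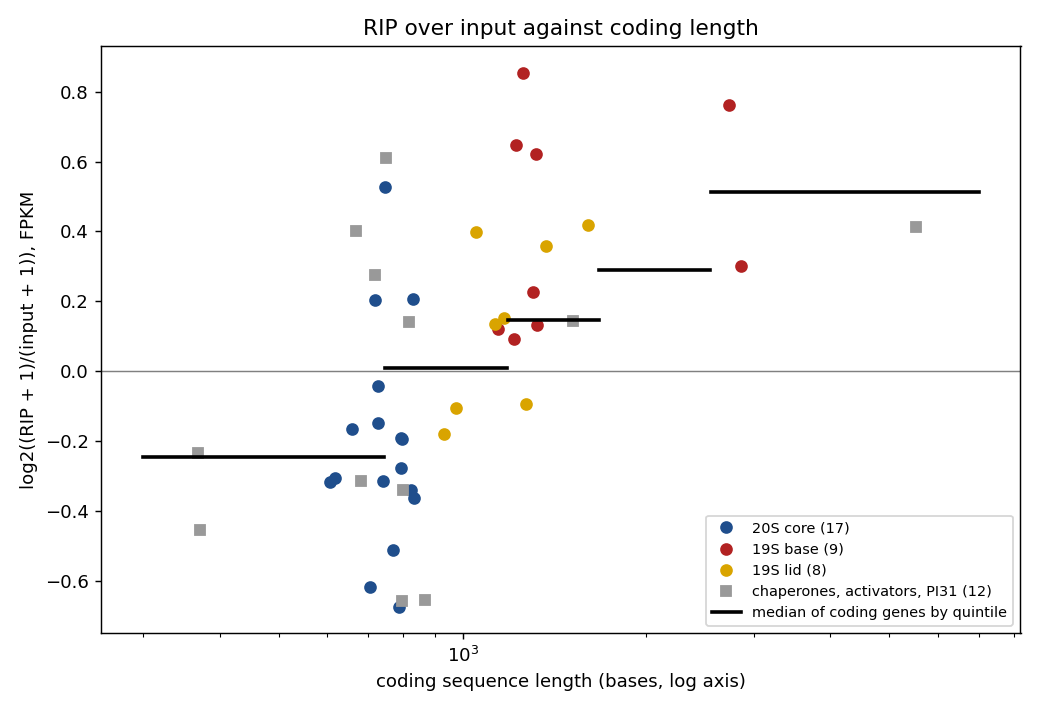
The x axis gives coding sequence length on a log axis and the y axis the log2 ratio of RIP over input. Points are the 46 transcripts by group, and black bars are the medians of coding genes tested in each quintile of coding length, cut short at the outer ends. The bars climb from -0.25 to 0.51, and the core points sit at the short end of the axis, mostly below 0 in deposited FPKM (3 of 17 below 0 after rescaling to TPM).

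The number of exons showed a like pattern, with a Spearman correlation of 0.41 over the 46 transcripts and 0.57 over coding genes tested. Within the core its sign was the opposite, at -0.45. Full transcript length had weaker correlations, 0.20 over the 46 transcripts and 0.25 over coding genes tested. The length of the untranslated 3′ part had -0.11 and -0.08. The number of annotated transcripts that keep an intron had 0.31 over the 46 transcripts and 0.36 over coding genes tested. The number of all annotated transcripts of a gene had 0.18 and 0.32.

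The use of G or C at the third base of codons had a correlation of 0.37 with the log2 ratio over the 46 transcripts and 0.15 over coding genes tested. Group medians followed it in part. The median share of codons ending in G or C was 56.4% in the core, 57.6% in the lid and 59.1% in the base. Their median log2 ratios were -0.28, 0.14 and 0.30. The alpha ring had 34.9% (-0.31). Other roles broke this order, with 53.9% in the base ATPases (0.42), 59.2% in the beta ring (-0.28) and 61.4% in the core chaperones (-0.55). The first 90 coding bases of the 2 highest and the 2 lowest members are shown as examples, chosen by their ratios, with capitals marking G or C at the third codon position (GENCODE release 29, GRCh38, coding strand, with the coordinates of the gene).
PSMC4 (chr19:39971005-39981441, plus strand): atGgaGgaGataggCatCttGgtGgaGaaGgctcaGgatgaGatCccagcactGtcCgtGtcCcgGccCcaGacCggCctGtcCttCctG
PSMD2 (chr3:184298709-184309054, plus strand): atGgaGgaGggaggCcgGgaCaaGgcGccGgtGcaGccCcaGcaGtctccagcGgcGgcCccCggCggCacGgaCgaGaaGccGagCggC
PSMG2 (chr18:12658043-12725740, plus strand): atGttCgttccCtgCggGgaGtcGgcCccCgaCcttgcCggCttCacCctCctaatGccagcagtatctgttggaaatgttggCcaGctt
PSMA4 (chr15:78540405-78552419, plus strand): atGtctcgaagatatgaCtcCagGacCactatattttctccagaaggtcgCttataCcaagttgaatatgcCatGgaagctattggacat
Of the 30 codons shown, 25 end in G or C in PSMC4, 27 in PSMD2, 18 in PSMG2 and 9 in PSMA4. Over the whole coding sequence the share was 71.4% in PSMC4, 59.6% in PSMD2, 37.7% in PSMG2 and 34.7% in PSMA4. PSMG3 and PSMG4, with 78.9% and 81.5%, were lower in the RIP all the same.

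Of 28 further genes that act with the proteasome, 27 were measured, and their log2 ratios had a median of -0.06, with 13 above 0 and 14 below. With the pseudocount none reached a 2-fold difference in deposited FPKM, against 4.90% of all genes tested higher and 2.50% lower. At the 1.5-fold limit 4 (14.8%) were higher in the RIP and 2 (7.41%) lower, against 19.9% and 10.2% of all genes tested. Among protein-coding genes tested these shares were 19.2% and 7.01%, and 384 of 10513 were 2-fold higher and 56 lower. ECPAS, listed under its older symbol KIAA0368, is an adaptor that binds proteasomes and stood at 64.7 FPKM in the RIP against 32.3 FPKM in the input. Its log2 ratio of 0.98 was the highest of this list, and without the pseudocount its FPKM values were just over 2-fold apart. ADRM1, a ubiquitin receptor of the base, stood at 72.5 FPKM in the RIP against 45.7 FPKM in the input, giving a log2 ratio of 0.65. VCP, a segregase that hands substrates to the proteasome, had 0.77, and MAFK, a small partner of the factors that drive proteasome genes, had 0.86.

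The 2 lowest genes of this list encode small proteins. Other short genes of the list lay on both sides of 0, such as MAFK (471 coding bases) at 0.86 and MAFF (408) at -0.09. SEM1, the small lid subunit listed as SHFM1, stood at 110 FPKM in the RIP against 183 FPKM in the input, giving a log2 ratio of -0.72. POMP, the maturation factor of the core, stood at 23.96 FPKM in the RIP against 38.6 FPKM in the input, giving a log2 ratio of -0.67. SEM1 lay outside the range of the 8 PSMD-named lid transcripts (-0.18 to 0.42), POMP lay just below the range of the core chaperones (-0.66 to -0.24), and ADRM1 lay within that of the base (0.09 to 0.85). NFE2L1, the transcription factor that raises proteasome genes when proteasomes fail, stood at 53.0 FPKM in the RIP against 57.1 FPKM in the input, giving a log2 ratio of -0.11.

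**Figure D5:**
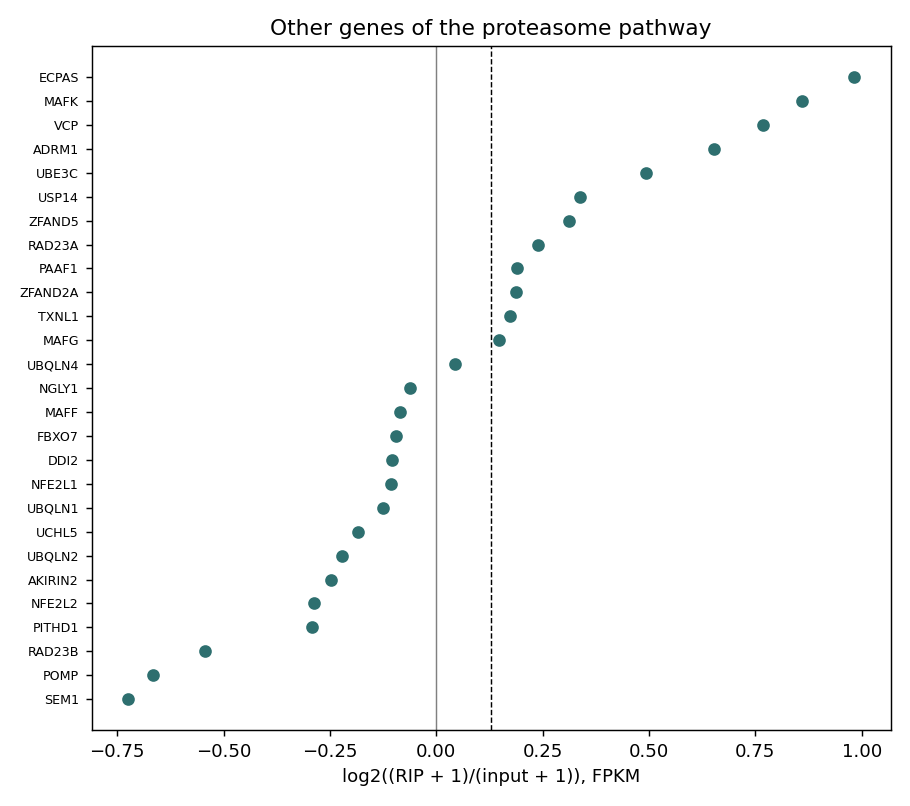
Each point is 1 of 27 measured genes that act with the proteasome but lie outside the name rule, with the log2 ratio of RIP over input on the x axis. The grey line marks 0 and the dashed line the median of all genes tested (0.13), and points run from SEM1 at -0.72 to ECPAS at 0.98.

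Neighbouring parts of protein quality control gave a scale for these medians. The 46 proteasome transcripts had a median log2 ratio of 0.02, the 8 subunits of the CCT chaperonin 0.03, 39 USP deubiquitinases 0.53 and 32 ubiquitin-conjugating UBE2 enzymes -0.36. Their median coding lengths were 819, 1629, 2751 and 546 bases. With 1 library per group these differences have no test.

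Some values are less certain because genes share sequence or position. PSMC1 and PSMD10 each have a processed pseudogene in the table, and reads of a copy and its parent gene can be exchanged in counting. PSMC1P5 stood at 30.4 FPKM in the RIP against 50.8 FPKM in the input, and PSMD10P1 at 3.69 FPKM in the RIP against 8.02 FPKM in the input. The spans of 3 members overlap a measured gene on the same strand, and among these PSMA2 shares 15318 bases with RP11-111K18.1, which stood at 6.30 FPKM in the RIP against 12.0 FPKM in the input (log2 ratio -0.83). The spans of 18 members overlap a measured gene on the opposite strand. The library kit keeps strand, but the strand setting of the counting is not given in the sources used here. PSMC1 overlaps NRDE2, which stood at 37.1 FPKM in the RIP against 13.0 FPKM in the input, and PSMC5 overlaps FTSJ3, at 71.7 FPKM in the RIP against 38.0 FPKM in the input. The part of these neighbours in the ratios of PSMA2, PSMC1 and PSMC5 was not tested.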

How the data were processed

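Per the submitters' processing notes, the tools were RSEM 1.2.31, STAR 2.6.1, Trimmomatic 0.3 and cutadapt 1.18, with hg38 as the build. Their settings, the annotation release and any filter on low genes were not given in the sources used here. From these steps the authors deposited 1 table with 1 value per gene and library, taken as FPKM from its decimals and unequal sums, since the table names no unit. FPKM is scaled within a library, so abundant RNAs lower all other values.

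Depth was estimated by searching for the depth and mean fragment length at which genes with 1 transcript gave whole fragments. In the RIP 57.8% of 370 genes and in the input 59.9% of 474 lay within 0.15 of a whole number, against 37.5% and 38.7% with transcript lengths shuffled between genes, so fragment numbers are approximate. Too few values were whole for a count test.

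The floor of 5 FPKM left 11990 genes. Coding sequences and coordinates came from GENCODE release 29 (GRCh38, the assembly of hg38), matched for 12983 of 13075 genes, using 1 principal transcript per gene. Calculations used Python 3.11.15, numpy 2.4.6, pandas 2.3.3 and scipy 1.17.1, and the ratio and depth steps were tested on simulated data. The ratio check used set changes without noise, so it covers the arithmetic alone and not the spread between libraries. Ratios are given for every member of the 10 roles, and for the highest and lowest genes of the pathway list, to which others were added for their roles after their values were seen. The members, lists and roles were chosen with earlier results of these data known. Other scalings, pseudocounts, floors and fold limits were tried.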

Additional observations from a re-analysis of the deposited data

How the results depend on the processing

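No paired analysis was possible because the RIP and the input had 1 library each. TMM and DESeq2 scaling were planned for counts alone and were not run. A value was counted as moved when it shifted by over 0.1 log2, and a count when it shifted by over 1.5 times. Of the alternatives' values for single members, 222 stayed within this limit and 138 moved, the latter all under the 3 rescalings.

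Centring on the median gene gave medians of -0.10 for all members, -0.40 for the core, 0.17 for the base, 0.016 for the lid and 0 for all genes tested, with 365 genes at least 2-fold higher. Rescaling to TPM gave 0.49, 0.19, 0.76, 0.61 and 0.56, with 2428 genes higher and 127 lower. It also put 5 members past 2-fold, PSMC4, PSMD2, PSMC5, PSMC3 and PSME1. Rescaling without abundant RNAs left out 350 rows, chosen by name and not by level. They were classes of noncoding RNA, mitochondrially encoded genes and TOP3B itself. This rescaling gave 0.15, -0.15, 0.43, 0.27 and 0.25, with 940 genes higher. The 1.5-fold limit gave 5 members higher and 4 lower, and 2386 and 1222 of all genes, and the 4-fold limit 79 and 84 of all genes. Pseudocount 5 gave 300 and 180 genes, and a floor of 20 FPKM 352 and 157. A further setting, chosen after seeing the data, left out 5 members with a copy or an antisense gene named after them in the table. They were PSMA3, PSMB8, PSMC1, PSMD5 and PSMD10, so PSMC1 was the only base transcript left out. Members that overlap other opposite-strand genes, such as PSMD6 and PSMC5, were kept. In this setting the base median was 0.46 and the base exceeded the core by 0.74.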

Other observations

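The 46 genes lie on 17 chromosomes, with at most 7 on 1 chromosome (chromosome 14), and 3 pairs lie within 200000 bases of each other. PSME1 (chromosome 14, 24136158 to 24138967, plus strand) and PSME2 (24143362 to 24147570, minus strand) had log2 ratios of 0.61 and 0.27. PSMB8 (chromosome 6, 32840717 to 32844703, minus strand) and PSMB9 (32844136 to 32859585, plus strand) overlap by 568 bases and had 0.21 and -0.17. PSMD4 and PSMB4, 132054 bases apart on chromosome 1, had 0.12 and -0.19.

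Antisense genes named after members were also in the table. PSMA3-AS1 stood at 30.0 FPKM in the RIP against 35.9 FPKM in the input, PSMD5-AS1 at 9.14 FPKM in the RIP against 12.4 FPKM in the input, and PSMB8-AS1 at 4.88 FPKM in the RIP against 3.06 FPKM in the input.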
